A study of Mus musculus with 32 samples.

Results

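Unirradiated wild type mouse embryonic fibroblasts were described here by the absolute signal of their genes. They made up 8 of the 32 samples of the series and came from 4 of its 16 RNA extracts. The samples were picked by the genotype and treatment in their labels, and these cells were chosen with earlier results of these data known. Each extract was hybridised to 2 Affymetrix array types, called array A and array B here, with 4 samples on each. The other extracts came from irradiated wild type cells and from cells with a mutation of Oct-1, a POU domain transcription factor, with and without irradiation. The wild type cells carried no mutation or agent named in the labels, and the labels call them primary fibroblasts at early passage. The sources used here do not give strain, embryonic age, sex, the number of embryos or whether the 4 replicates were separate cultures. Errors are therefore SDs over 4 arrays and measure only the spread between these samples, which may be technical.

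Mouse embryonic fibroblasts are the adherent mesenchymal cells that grow out of dissociated embryos, and they are a mixture of cells from many parts of the body. Fibroblasts build the extracellular matrix: they synthesise fibrillar collagens, modify and fold the chains in the secretory pathway, and pull on the finished matrix with actin stress fibres anchored at integrins. Transcription factors such as Twist1 and Prrx1 mark mesenchyme, and fibroblasts grown from different body sites keep different patterns of Hox gene expression in culture.

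All levels below are deposited log2 signals of probe sets, and a gene with several probe sets is given by the one with the highest mean. A level measures the brightness of 1 probe set, so the order of genes is an order of signals and not of transcript numbers, and probe sets shared with close relatives can read more than 1 gene. Array A measured 12393 genes in 22626 probe sets that are not controls, and array B added 5800 genes. Medians of the 4 wild type samples were 6.18 to 6.24 for array A and 3.67 to 3.73 for array B. On array A the top 25% of probe sets began at 8.62, the top 5% at 11.43, and the bottom 25% ended at 3.43. The 27 control probe sets for bacterial genes reached 4.60 on array A and 5.14 on array B (the sources used here do not say whether bacterial RNA was added to the samples). Of all genes of array A, 28.6% were in the top 25%, 22.8% in the bottom 25% and 65.6% above every bacterial control. Of the genes measured only on array B, 34.5% were above every bacterial control.

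The brightest genes of these fibroblasts mostly served protein synthesis and the cytoskeleton. Rpl35, a protein of the large ribosomal subunit, led array A with 15.24, 15.24, 15.28 and 15.17 in replicates 1 to 4. Lgals1, which encodes the secreted lectin galectin-1, followed Rps18 with 15.19, 15.11, 15.04 and 15.16. The 15 highest genes held 7 ribosomal proteins (Rpl35, Rps18, Rps10, Rps29, Rplp0, Rpl4 and Rpl37a), the translation factors Eef1a1 and Eif5a, and the cytoskeletal genes Actg1, Actb and Vim. Tpt1, a translationally controlled protein, was also among these 15. The calcium-binding protein S100a6 at 14.96 ± 0.11 (SD, n = 4) completed them with Lgals1. Neighbours in this order did not separate: from Rpl35 at 15.23 to Rpl37a at 14.77 the 15 means spanned less than 0.5, and all 14 pairs of neighbouring genes overlapped in their replicates. On array B the highest genes were Ssr3, a subunit of the translocon-associated complex, at 14.09 ± 0.05, Rpl22 at 13.97, the hyaluronan receptor Cd44 at 12.89, the nonmuscle myosin heavy chain Myh10 at 12.82 and the splicing factor Prpf19 at 12.75.

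**Figure D1:**
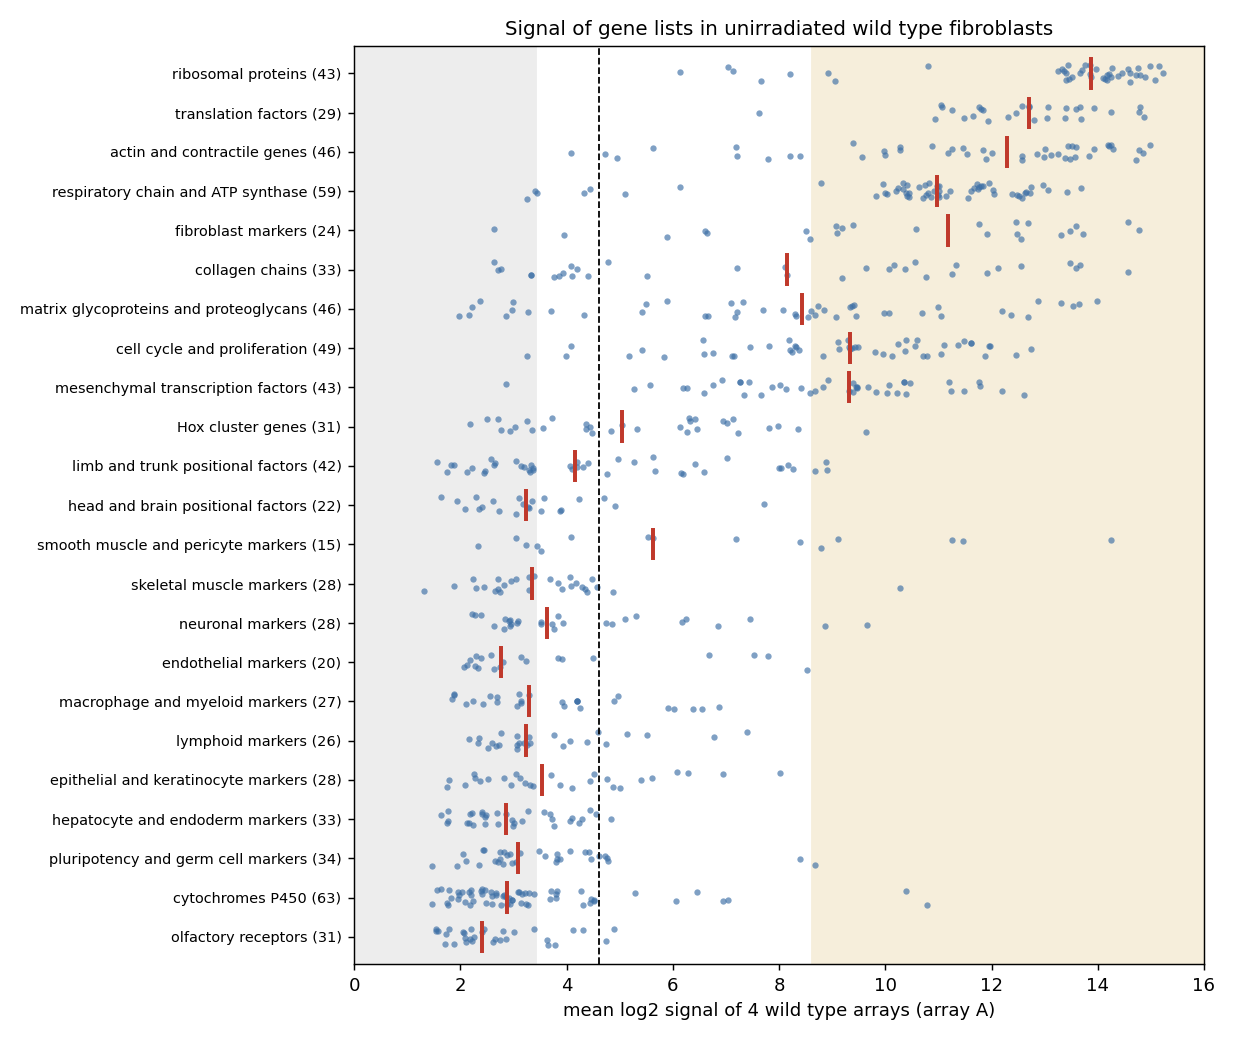
Each point is 1 gene's mean log2 signal over the 4 wild type samples on array A, by gene list (number measured in brackets), and red bars are list medians. The shaded zones are the bottom 25% (to 3.43) and the top 25% (from 8.62) of all probe sets, and the dashed line is the highest bacterial control at 4.60. Ribosomal, contractile and fibroblast genes lie to the right, and markers of most other cell types lie to the left.

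The 5 genes chosen as fibroblast markers were all far above the bacterial controls. Col1a1 and Col1a2, the chains of type I collagen, read 14.58 ± 0.10 and 13.59 ± 0.22. Prrx1, a homeobox factor of limb and trunk mesenchyme, read 11.89, 11.86, 11.65 and 11.69 by its brightest probe set. The other probe sets of Prrx1 on array A were all lower in replicates 3 and 4, 1 of them with 10.423, 10.515, 9.066 and 8.925. On array B 1 probe set of Prrx1 read 10.635, 10.694, 9.848 and 9.895, and another 4.338, 4.327, 4.402 and 4.760. Twist1, a basic helix-loop-helix factor of mesenchyme, read 8.47, 8.55, 8.68 and 8.59. Pdgfra, the receptor for platelet-derived growth factor A, read 9.51, 9.36, 8.75 and 8.77, so that replicates 3 and 4 were below replicates 1 and 2. Its other probe set on array A read 7.566, 7.606, 6.019 and 6.088 and split the same way. The probe set of Pdgfra on array B read 6.593, 7.130, 6.523 and 6.737, and there the pairs overlapped. Twist1 at a mean of 8.57 lay just under the bound of the top 25%, and the other markers lay above it. The markers named with the cells were therefore all present in the 4 samples.

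Of 24 measured fibroblast markers, 17 were in the top 25% and 22 were above every bacterial control. The intermediate filament gene Vim led at 14.78 ± 0.09, and Thy1, a surface glycoprotein, read 12.45 ± 0.37. A few members were dim. Tcf21, a transcription factor of visceral mesenchyme, read 2.63 ± 0.08 and Dpt, a dermal matrix protein, 3.96 ± 0.53, both under the highest bacterial control. The small leucine-rich proteoglycans decorin (Dcn) and lumican (Lum), often abundant in connective tissue, read only 5.89 ± 0.45 and 6.60 ± 0.82.

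Collagen genes ranged from some of the brightest of the array to the bottom 25%. Among 33 measured chains 16 were in the top 25% and 5 in the bottom 25%. After Col1a1 came Col5a2 at 13.66 ± 0.18, Col1a2, and Col3a1 at 13.48 ± 0.11, all chains of fibril-forming collagens. Col4a3, a chain of kidney basement membrane, read 2.63 ± 0.05, Col17a1, an epidermal transmembrane collagen, 2.71, and Col9a2 of cartilage 2.77. Col14a1, a fibril-associated chain, was also low at 3.32 ± 0.08.

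The enzymes and chaperones that make collagen were bright: 15 of 20 were in the top 25% and all 20 were above the bacterial controls. Serpinh1, the collagen chaperone HSP47, read 14.03 ± 0.07, Lox, which crosslinks collagen, 13.43 ± 0.09, and Ppib, a prolyl isomerase of the endoplasmic reticulum, 13.36 ± 0.10. The lowest was the lysyl oxidase relative Loxl4 at 7.08 ± 0.12. Among 46 matrix glycoproteins and proteoglycans 21 were in the top 25%, led by biglycan (Bgn) at 13.98 ± 0.10, Thbs1 at 13.64 ± 0.09 and Sparc at 13.53 ± 0.28. Aggrecan (Acan), the main proteoglycan of cartilage, read 2.15 ± 0.03 and vitronectin (Vtn), made mainly by liver, 1.97 ± 0.04.

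Proteases and their inhibitors spanned a wide range. Of 31 measured, 14 were in the top 25%, led by the inhibitor Timp2 at 12.89 ± 0.05, cathepsin L (Ctsl) at 12.53 ± 0.10 and Timp1 at 12.43 ± 0.19. The membrane-bound Mmp14 read 10.71 ± 0.38. The secreted metalloproteinases Mmp8, Mmp10, Mmp13 and Mmp12 read 2.37, 2.41, 2.90 and 3.11 and were all below the highest bacterial control.

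Contractile genes were mostly bright. Of 46 measured, 37 were in the top 25% and 28 in the top 5%, against 4.87% of all genes of array A. Besides Actg1 at 14.98 and Actb at 14.86, the smooth muscle actin gene Acta2 read 14.22, 14.03, 14.31 and 14.48, and its partner Tagln averaged 14.28 ± 0.21. Tmsb10, which binds actin monomers, averaged 14.71 ± 0.11. Desmin (Des) at 4.08 ± 0.10 and cardiac actin (Actc1) at 4.72 ± 0.27 were among the lowest of the list. Myh11, the heavy chain of smooth muscle myosin, averaged only 5.63 ± 0.67. Acta2, Cnn1 at 11.46 ± 0.52 and Actg2 at 11.25 ± 0.54, 3 genes of contractile smooth muscle, were thus bright beside a dim Myh11 and dim Des in the same samples.

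Adhesion genes ranged from bright to dim. Integrin beta 1 (Itgb1) at 13.20 ± 0.07, integrin alpha V (Itgav) at 12.25 ± 0.16 and integrin alpha 5 (Itga5) at 10.98 ± 0.26 led 21 measured subunits, of which 9 were in the bottom 25%. Those included Itgb4 of hemidesmosomes at 1.71, and the leukocyte subunits Itgal at 1.96 and Itgax at 2.11. Cdh11, a cadherin of mesenchyme, read 12.46 ± 0.23 and N-cadherin (Cdh2) 11.35 ± 0.18, whereas E-cadherin (Cdh1) read 3.13 ± 0.08 and the endothelial Cdh5 2.64 ± 0.10. The connexins Gja1 and Gjb2 were both bright, Gjb2 at 11.36 ± 0.22.

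Among secreted signals, 28 of 95 measured genes were in the top 25% and 20 in the bottom 25%. The matricellular proteins Ccn2 at 13.76 ± 0.14 and Ccn1 at 12.89 ± 0.14 led with Fstl1 at 13.60 ± 0.04, a secreted glycoprotein of the follistatin family, and Ccn4 at 12.48 ± 0.35. Fgf5, Csf2, Igfbp1 and Dkk1 closed the list between 1.70 and 1.96. Of 70 receptors 22 were in the top 25% and 6 in the bottom 25%, against 10 and 13 when a gene was given by the median of its probe sets, led by the thrombin receptor F2r at 12.84 ± 0.20, the receptor tyrosine kinase Axl at 12.67 ± 0.13 and the collagen receptor Ddr1 at 10.64 ± 0.07. The lowest receptors were Lrp5 at 2.11, Notch4 at 2.54, Ror1 at 2.68 and Il7r at 2.77.

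Mesenchymal transcription factors were measurable almost without exception. Of 43, 42 were above the bacterial controls and 25 in the top 25%, led by the chromatin protein Hmga2 at 12.61 ± 0.07, Sox4 at 12.19 ± 0.12 and the inhibitor of differentiation Id3 at 11.78 ± 0.13. Ebf2, a factor of early adipocyte lineages, was the exception at 2.87 ± 0.08. Genes of proliferation were bright too, with 30 of 49 in the top 25%. The sliding clamp Pcna read 12.74 ± 0.06, the ribonucleotide reductase subunit Rrm2 12.46 ± 0.16 and Mki67, a marker of cycling cells, 10.72 ± 0.16. Telomerase reverse transcriptase (Tert) read 3.25 ± 0.29.

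Hox genes, which record position along the body axis, ranged from 9.63 to 2.18 in mean signal. Of 31 measured on array A, 17 were above the bacterial controls, 1 was in the top 25% and 8 were in the bottom 25%. Hoxc8 was the highest with 9.63, 9.62, 9.66 and 9.63. Hoxa9 followed with 8.52, 8.59, 8.40 and 7.93, and Hoxd8 with a mean of 7.98 ± 0.12. The replicates of Hoxc8 did not overlap those of any other Hox gene on either array, whereas those of Hoxa9 and Hoxd8 overlapped.

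Within the clusters the signals were discontinuous. Genes such as Hoxa7, Hoxb5, Hoxc9, Hoxd11 and Hoxd12 were read by 1 probe set each, so a gap in signal is no proof of a silent gene. In the Hoxa cluster, Hoxa5 at 6.46, Hoxa9, Hoxa10 at 7.01 and Hoxa11 at 7.23 were above the controls, whereas Hoxa2 at 3.56, Hoxa3 at 3.72, Hoxa4 at 3.26, Hoxa7 at 4.48 and Hoxa13 at 4.36 were not. In the Hoxb cluster, Hoxb6 at 6.94, Hoxb9 at 6.33, Hoxb3 at 6.30, Hoxb2 at 6.14 and Hoxb4 at 5.33 were above them. Hoxb3 read 8.31 ± 0.19 by its probe set on array B. Hoxb5 at 4.37, Hoxb13 at 3.34, Hoxb7 at 3.02 and Hoxb1 at 2.18 were below. In the Hoxc cluster, Hoxc6 at 7.81, Hoxc4 at 6.41 and Hoxc5 at 6.27 joined Hoxc8, and Hoxc10 read 6.40 ± 0.04 on array B. Hoxc9 at 4.44 and Hoxc13 at 2.76 were not above the controls. By their lowest probe sets Hoxb4 read 2.91 and Hoxc6 4.08, which were not above the highest control either.

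The Hoxd cluster held the most posterior gene with signal. Hoxd13, a gene of the digits and the genital tubercle, read 7.63, 7.66, 6.69 and 6.53, with replicates 3 and 4 below replicates 1 and 2. By another probe set on array B Hoxd13 read 9.19, 9.22, 8.52 and 8.46, the highest Hox signal of that array, and split the same way. Its neighbours Hoxd12 at 2.94 and Hoxd11 at 2.50 were below the highest control and not below all of them, Hoxd10 at 4.83 and Hoxd9 at 5.05 were just above the highest one, and Hoxd1 read 2.71. Hoxd3, on array B, read 3.66. Over all clusters, 2 of 7 measured genes of paralogous groups 1 to 3, 8 of 12 of groups 4 to 8 and 8 of 14 of groups 9 to 13 were above the bacterial controls of their array. The RNA came from mixed cells, so fewer cells with a transcript and less of it per cell cannot be told apart here or below.

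**Figure D2:**
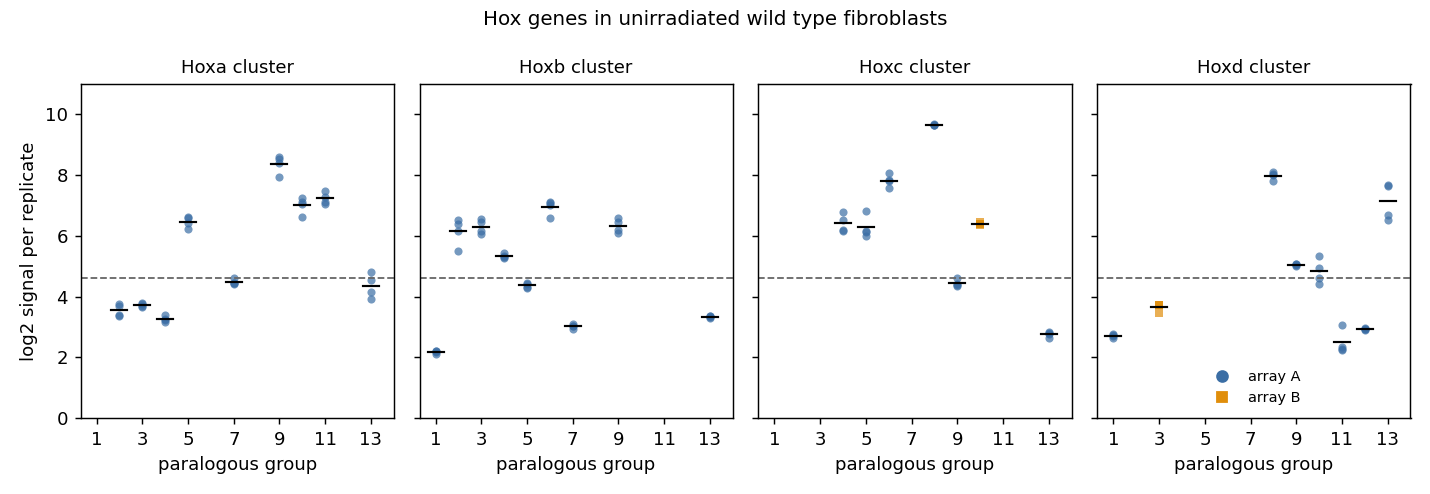
Log2 signal of each Hox gene in each wild type sample, by cluster and paralogous group, with black bars at the mean. Circles are array A and squares array B, and the dashed line is the highest bacterial control of array A at 4.60. Hoxc8 has the highest mean, and Hoxd13 stands apart from its neighbours Hoxd11 and Hoxd12.

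Of the Hox cofactors, which bind DNA beside Hox proteins, Pbx2 at 8.13 ± 0.06, Meis1 at 8.08 ± 0.04 and Pbx3 at 8.0 ± 0.04 were the brightest. Pknox1 read 7.17, Meis2 7.02, Meis3 6.54 and Pbx4 4.76, and Pknox2 at 2.80 ± 0.04 was the only one of 8 in the bottom 25%. Other positional factors of limb and trunk were mostly dim: 3 of 42 were in the top 25% and 19 in the bottom 25%. Those 3 were Foxc2 at 8.91 ± 0.08, Tbx15 at 8.88 ± 0.12 and Irx3 at 8.68 ± 0.10, all factors of mesoderm. Sonic hedgehog (Shh), the signal of the posterior limb bud, read 2.46 ± 0.05 and Fgf8, a signal of the limb ridge, 1.75 ± 0.03.

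Tbx4, a factor of the hindlimb, differed between its probe sets. It read 5.41, 5.05, 2.92 and 3.43 on array A and 7.67, 7.75, 6.29 and 6.30 by another probe set on array B. Both probe sets were lower in replicates 3 and 4. Tbx5, the forelimb counterpart, read 4.19 ± 0.03. Positional factors of head and brain were dimmer still, with 3 of 22 above the bacterial controls: Egr2 at 7.71 ± 0.20, Pax6 at 4.91 ± 0.09 and Tfap2a at 4.70 ± 0.15. Nkx2-1, of forebrain, lung and thyroid, read 1.64 ± 0.03 and Otx2 2.61.

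Markers of other cell types were mostly dim. Pooled and counted once, without genes that are also in the fibroblast list, 395 were measured on array A, of which 187 were in the bottom 25%, 98 above the bacterial controls and 17 in the top 25%. With the median probe set of a gene the 17 became 10, and the top 25% then held 2 adipocyte genes in place of 4, 1 glial gene in place of 4, 0 neuronal genes in place of 2 and 0 pluripotency genes in place of 1. The defining surface markers Ptprc of leukocytes at 1.89, Pecam1 of endothelium at 2.39, Cdh5 and the epithelial Epcam at 3.31 were all under the bacterial bound.

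Blood lineages gave no gene in the top 25%. Among 27 macrophage genes 7 were above the controls, led by C1qb at 6.87 ± 0.03 and Csf1r at 6.55 ± 0.09, but C1qa at 1.88 and C1qc at 1.85, whose products assemble with that of C1qb, were at the bottom. Among 26 lymphoid genes Ighm at 7.40 ± 0.05 and Zap70 at 6.78 ± 0.20 led, while Cd3d read 2.17 and Pax5 2.36. Of 20 endothelial genes none was in the top 25%, 13 were in the bottom 25% and 4 were above the controls. The receptors Flt1 at 8.53 ± 0.14 and Flt4 at 6.68 ± 0.11 were above the controls, and Sox18 at 2.08 and Esam at 2.18 were dim.

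Muscle lists differed in how many members had signal. Of 28 skeletal muscle genes only Acta1, the skeletal actin, was in the top 25%, with 9.70, 9.52, 10.95 and 10.94, and replicates 3 and 4 were above replicates 1 and 2. Myod1, the myogenic regulator, read 1.32 ± 0.03, the lowest of the list, and Ryr1 read 1.87. Of 19 cardiac genes none was in the top 25% and 8 were above the controls, and troponin T (Tnnt2) led at 7.19 ± 0.68. Of 15 smooth muscle and pericyte genes 9 were above the controls and 5 were in the top 25%: Acta2, Cnn1, Actg2, Mcam at 9.12 ± 0.48 and Cspg4 at 8.79 ± 0.28. Myocd, the coactivator of smooth muscle genes, read 3.52 ± 0.08.

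Mesenchymal relatives of fibroblasts were mixed. Among 18 adipocyte genes Dlk1, a preadipocyte protein, read 10.86 ± 0.13, Fasn 10.51, Scd1 9.60 and Lpl 9.44, whereas adiponectin (Adipoq) read 2.02 ± 0.03 and leptin (Lep) 2.37. Among 23 cartilage and bone genes only Col11a1 at 9.18 ± 0.40 was in the top 25%. The neural adhesion molecule Ncam1 at 9.65 ± 0.46 and the microtubule regulator Stmn2 at 8.86 ± 0.14 were the only 2 of 28 neuronal genes in the top 25%, beside Syt1 at 2.22 and Neurog2 at 2.28. Pmp22 at 11.20 ± 0.15, a myelin protein also made in other tissues, led the glial list, whose lowest members were Olig1 at 1.37 and Dct at 1.55.

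Endoderm, germ line and olfactory genes were mostly below the highest bacterial control. Of 33 hepatocyte and endoderm genes 22 were in the bottom 25% and 1 was above the controls, transthyretin (Ttr) at 4.84 ± 0.17. Albumin (Alb) read 2.23 ± 0.02. Klf4 at 8.68 ± 0.12 was the only one of 34 pluripotency and germ cell genes in the top 25% (6 were above the controls), with Klf5 at 8.39, and both are also made outside stem cells. Nanog read 3.13 ± 0.08 and Pou5f1 2.34 ± 0.06. Of 31 olfactory receptor genes 24 were in the bottom 25% and none was in the top 25%, and the brightest, Olfr870, read 4.89 ± 0.24.

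The cytochromes P450, oxidases of steroids and foreign compounds, were mostly dim. Of 63 measured on array A, 45 were in the bottom 25%, and Cyp1b1 at 10.79 ± 0.12 and Cyp51 at 10.39 ± 0.07, an enzyme of cholesterol synthesis, were in the top 25%. The next, Cyp4f16, read 7.04 ± 0.06. Of 10 more measured only on array B, 3 were in the top 25% of that array, led by Cyp20a1 at 10.20 ± 0.18. Of 40 keratins of array A 10 were above the controls and none was in the top 25%, with Krt19 the brightest at 8.02 ± 0.21. Of 8 more measured only on array B, Krt42 at 7.09 ± 0.10 was in the top 25% of that array.

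Most genes of the large housekeeping families were bright. All 74 mitochondrial ribosomal protein genes were above the bacterial controls and 58 were in the top 25%, led by Mrpl52 at 11.70 ± 0.18. Of 43 cytosolic ribosomal protein genes 38 were in the top 25% and 35 in the top 5%. The exceptions were Rps27 at 6.14 ± 0.10, Rpl27a at 7.04 ± 1.02, Rpl12 at 7.12 ± 0.07, Rpl39 at 7.66 ± 0.10 and Rps6 at 8.21 ± 0.16, although every cell needs these proteins. A low probe set is therefore no proof of a silent gene. Respiratory chain and ATP synthase genes gave 52 of 59 in the top 25%, led by Cox6a1 at 13.69 ± 0.08, and proteasome genes 31 of 35, led by Psmc2 at 13.09 ± 0.16.

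Dim members included forms known from other tissues and also forms that most cells use. In the respiratory chain the lowest were Cox8b at 3.25, Cox7a1 at 3.41 and Cox6a2 at 4.33, forms of heart and skeletal muscle, and Cyct at 3.44, the cytochrome c of testis, but Cox7c, a form of most tissues, was also below the highest bacterial control at 4.44 ± 0.18. Of 26 genes of glycolysis 11 were in the top 25% and 19 above the controls. There, where Aldoa at 13.19 ± 0.12 and Ldha at 13.10 ± 0.07 led, the lowest were the muscle form Pgam2 at 2.27, the hepatic glucose transporter Slc2a2 at 2.46, and the sperm enzymes Gapdhs and Ldhc at 2.75 each. In the proteasome the testis subunit Psma8 read 3.34 ± 0.15 and the interferon-induced subunits Psmb8 and Psmb9 3.08 ± 0.31 and 2.38 ± 0.04. Their constitutive counterparts Psmb5 and Psmb6 read 11.99 and 11.47. Eef1a2, the elongation factor form of muscle and nerve, read 7.62 ± 0.03 beside 14.88 ± 0.10 for Eef1a1.

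Among 30 imprinted genes, which are expressed from the allele of 1 parent, 14 were in the top 25%. Gnas read 13.69 ± 0.08, Grb10 12.66 ± 0.05, Ndn 12.38 ± 0.13 and the fetal growth factor Igf2 12.13 ± 0.18. Phlda2, which acts in placenta, read 1.61 ± 0.03 and Zim1 2.10.

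The sex-linked genes were bright for Xist and dim for the Y-linked genes. Xist, the RNA that coats the inactive X chromosome in female cells, read 9.78, 9.39, 9.05 and 8.32. The Y-linked genes Eif2s3y at 3.13 ± 0.13, Kdm5d at 2.96 ± 0.22, Uty at 3.92 ± 0.44, Zfy2 at 3.01, Usp9y at 2.68 and Sry at 3.19 were all below the highest bacterial control. Their X-linked relatives Eif2s3x at 12.32, Ddx3x at 12.79, Kdm6a at 8.39 and Kdm5c at 5.82 were above it, and Tsix, the antisense partner of Xist, read 2.26. All 4 replicates had Xist above the bacterial controls and these Y-linked genes below the highest one, but levels differed between replicates. At their brightest probe sets Xist and Kdm6a were lower in replicates 3 and 4, by -0.90 ± 0.22 (SE, adjusted p = 0.0238, limma) and -0.34 ± 0.10 (0.0495). Another probe set of Xist read 8.705, 8.690, 8.436 and 8.467, a smaller fall. The remaining one read 5.658, 5.065, 5.770 and 5.510, without a fall. Uty read 3.66, 3.44, 4.26 and 4.32. The sources used here do not give the sex of the embryos.

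CpG-rich promoter windows were more frequent among bright genes than among dim ones. Promoter windows of 300 bases (250 before the start of a gene and 50 after it, RefSeq, GRCm38.p6) were matched by symbol to 7938 genes of array A with a single window. A window was called CpG-rich at a ratio of observed to expected CpG dinucleotides of 0.6 or more. That held for 85.8% of 2344 genes in the top 25%, 64.1% of 3793 in the middle and 26.9% of 1801 in the bottom 25%, against 62.1% of the 7938 genes and 35.7% of all 22862 single windows in the table. The motif TATAAA, read on the gene's strand only, was in 5.08% of windows of the top 25%, 5.99% of the middle and 13.7% of the bottom 25%, against 7.47% of the 7938 genes and 9.49% of all single windows. It did not fall steadily with level, since 9.07% of the top 5% and 4 of 32 ribosomal protein genes held it. The motif holds no CpG, but a window can hold both features, as that of Twist1 did.

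The share of CpG-rich windows varied between lists. Of 32 ribosomal protein genes with a single window 27 were CpG-rich, and of 62 mitochondrial ribosomal protein genes 57 were. Of 14 fibroblast markers 3 were CpG-rich and 5 held TATAAA, and of 25 matrix glycoproteins and proteoglycans 7 were CpG-rich. Mesenchymal transcription factors were CpG-rich in 18 of 23 windows. Dim families varied as well: 5 of 41 cytochromes P450 and 2 of 20 skeletal muscle genes were CpG-rich, but 7 of 16 Hox genes and 8 of 19 pluripotency and germ cell genes were. Of the 20 skeletal muscle genes 7 held TATAAA.

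The 70 bases before the start are shown for 8 of these genes, chosen after their values were seen, from the brightest housekeeping genes through fibroblast markers to dim tissue genes. Capitals mark CpG dinucleotides. They lie on GRCm38.p6 at chr11:120348496-120348565 (Actg1, minus strand), chr2:39005132-39005201 (Rpl35, minus), chr12:33957601-33957670 (Twist1, plus), chr6:4505548-4505617 (Col1a2, plus), chr5:75152181-75152250 (Pdgfra, plus), chr7:19411024-19411093 (Ckm, plus), chr5:90460800-90460869 (Alb, plus) and chr16:10796824-10796893 (Prm1, minus).
Actg1: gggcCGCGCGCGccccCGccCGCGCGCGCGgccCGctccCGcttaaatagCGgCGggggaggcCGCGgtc
Rpl35: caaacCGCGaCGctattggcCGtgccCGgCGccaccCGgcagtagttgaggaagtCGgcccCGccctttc
Twist1: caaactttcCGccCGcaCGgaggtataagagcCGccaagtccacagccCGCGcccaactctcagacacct
Col1a2: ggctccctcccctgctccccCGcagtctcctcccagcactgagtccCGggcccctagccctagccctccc
Pdgfra: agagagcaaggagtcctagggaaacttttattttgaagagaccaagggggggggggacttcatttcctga
Ckm: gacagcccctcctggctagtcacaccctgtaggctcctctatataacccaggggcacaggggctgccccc
Alb: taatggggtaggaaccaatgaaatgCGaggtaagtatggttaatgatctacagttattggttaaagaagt
Prm1: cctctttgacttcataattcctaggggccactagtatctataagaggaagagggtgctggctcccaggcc
These stretches hold 16 CpG in Actg1, 9 in Rpl35, 6 in Twist1, 2 in Col1a2, 0 in Pdgfra, 0 in Ckm, 1 in Alb and 0 in Prm1. Over the whole window the ratio was 1.12 for Actg1 and 0.85 for Rpl35, but 0.47 for Col1a2 at a level of 13.59 and 0.26 for Pdgfra at 9.10. Ckm, muscle creatine kinase, had a ratio of 0.23 and a level of 4.18 ± 0.08, and Prm1, a sperm protamine, 0.05 and 4.61 ± 0.04. Pdgfra had a ratio near the 0.27 of Alb, with a signal far above that of Alb. Col1a2 was under the bound of 0.6 but above the alternative bound of 0.4, which Pdgfra, Ckm and Alb did not reach.

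**Figure D3:**
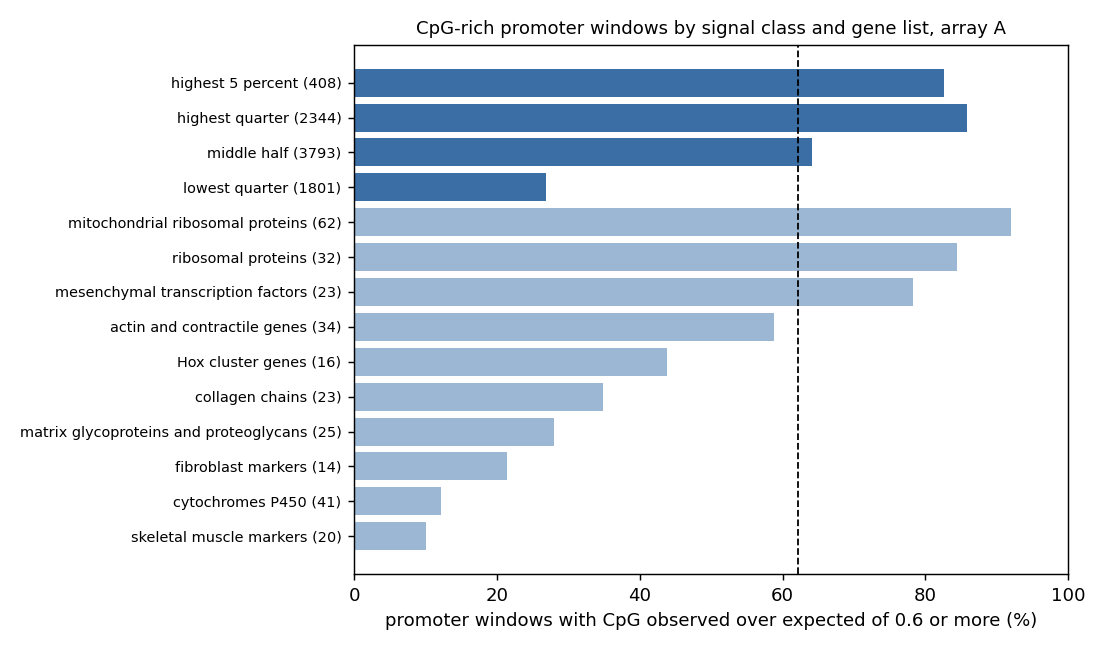
Share of promoter windows with a CpG ratio of 0.6 or more, by signal class (dark bars) and by gene list (light bars), with the number of windows in brackets. The dashed line is the share of all genes of array A, 62.1%. The share is 85.8% in the top 25% and 26.9% in the bottom 25%, and fibroblast markers, at 3 of 14 windows, lie below the line.

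Replicates were close to each other. A probe set had a median SD of 0.113 for array A and of 0.0545 for array B. However, 75.5% of probe sets of array B lay at or below the highest bacterial control, against 37.3% on array A. In the top 25% of probe sets the order reversed, with 0.127 on array A and 0.162 on array B. With the probe sets of array A divided into 4 equal classes by level, the median SD was smallest in the lowest class, at 0.0518, and largest in the third, at 0.166. Correlations across probe sets, which are not independent, were 0.998 within each pair of replicates 1 and 2 or 3 and 4 on array A and 0.993 to 0.995 across the pairs. On array A 0.102% and 0.084% of probe sets differed over 2-fold within those pairs, against 1.81% to 2.37% across them.

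**Figure D4:**
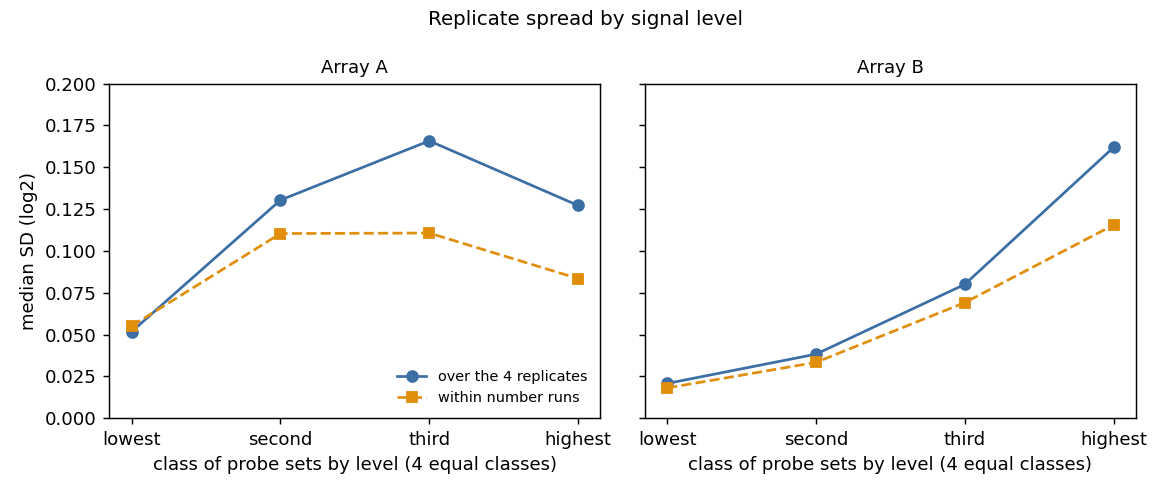
Median SD of probe sets over the 4 wild type replicates (circles) and within number runs (squares), in 4 equal classes of signal, on each array. On array A the median is 0.166 in the third class over all replicates. Within runs of array A the median is smaller in the upper 3 classes and not in the lowest.

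The steadiest bright genes of array A were Chst14, Shmt2, Rai14, Hdac3 and Ndufa4. Chst14, a sulphotransferase of dermatan sulphate, read 9.0 in every replicate. Ndufa4 of the respiratory chain read 11.80, 11.79, 11.81 and 11.82. The 10 genes of array A with the largest SD, among genes brighter than the median probe set, all split by the same pairs of replicates. Penk, which encodes the opioid precursor proenkephalin, averaged 9.95 in replicates 1 and 2 and 6.88 in replicates 3 and 4. The sphingosine 1-phosphate receptor S1pr3 read 9.87, 9.72, 7.73 and 8.03, and the Wnt modulator Sfrp2 8.70, 8.82, 7.26 and 7.20. Mgll, a lipase, ran the other way with 8.14, 8.30, 9.89 and 9.72. In these 4 genes the pairs did not overlap.

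The pairs follow the numbers in the sample titles, which form 2 runs: replicates 1 and 2 fall in the first and replicates 3 and 4 in the second. The sources used here do not say what the numbers mark. With limma's moderated test and Benjamini-Hochberg adjustment, 2639 of 13576 probe sets of array A, or 19.4%, differed between the runs at an adjusted p under 0.05, with 1072 higher and 1567 lower in the second run. On array B 54 of 13507, or 0.4%, were called, and 0 of them were higher in the second run, whereas 2016 had an unadjusted p under 0.05. Each run held 2 samples. Whether these were separate cultures is not stated, so the p-values and SEs of run differences rest on spread that may be technical. If it is, each run counts as 1 sample, and a call says only that these arrays differed. The count on array A was 1272 without replicate 1 and 1042 without replicate 2. The count on array B was 0 after quantile normalization, 0 without replicate 3 and 0 without replicate 4, and 700 without replicate 1 and 709 without replicate 2.

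The largest rises belonged to genes of several kinds. Moxd1, a monooxygenase of the secretory pathway, rose by 2.12 ± 0.13 (SE, adjusted p = 9.69e-05, limma), from a mean of 4.32 to one of 6.43. Fibin rose by 1.94 ± 0.16, and the matrix crosslinking enzyme Tgm2 rose in 2 probe sets, by 1.87 ± 0.14 and 1.58 ± 0.12. Rnf128, an E3 ubiquitin ligase, rose by 1.82 ± 0.14, and Mgll by 1.58 ± 0.10. A second probe set of Actb rose by 1.66 ± 0.26 and that of Rpl27a by 1.73 ± 0.18.

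The largest falls were larger than the largest rises. A probe set of Heatr1, a factor of ribosomal RNA synthesis, had -3.25 ± 0.25 (SE), and a probe set of the transferrin receptor Tfrc read 7.11, 7.29, 4.00 and 3.89, a difference of -3.25 ± 0.13 (adjusted p = 2.59e-05, limma). Penk had -3.07 ± 0.10. Lama4, Top2b, Twsg1, Met and Ltn1 had between -2.85 and -2.44. On array B the largest falls were in Ecpas at -3.09, Ercc6l at -2.65, Phf6 at -2.61 and Cad at -2.59, each with an adjusted p of 0.0421 by limma.

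In a fit of all 16 extracts the calls of Rpl27a (adjusted p = 0.117, limma) and of that probe set of Actb (0.236) were lost. Their differences there were 1.73 and 1.66. Without replicate 2 the calls of that probe set of Actb and of Met were lost, with differences of 1.39 and -2.35. Ecpas, Ercc6l, Phf6 and Cad lost their calls without replicate 3, without replicate 4 and after quantile normalization. After quantile normalization their differences were -3.00, -2.56, -2.58 and -2.55.

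Several of these falls were not seen in the brightest probe set of the gene. The brightest probe set of Tfrc read 11.31, 11.25, 11.21 and 11.15, with no such drop, while the remaining one read 8.96, 9.45, 7.33 and 6.85. The brightest probe set of Lama4, a laminin chain, read 8.67, 8.65, 8.48 and 8.59 while another fell from 6.49 and 6.55 to 4.23 and 3.11. For Grb10 the brightest read 12.64, 12.73, 12.61 and 12.66 and the other 2 read 10.27, 10.37, 8.22 and 7.89, and 9.57, 9.41, 7.28 and 7.39. Of 3066 genes of array A with several tested probe sets, 1341 had at least 1 called and 133 had all called. Among these genes 16.8% of the highest and 27.1% of the lowest probe sets were called, and a fall of more than 1 was seen in 10 of the highest and 177 of the lowest.

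The control probe sets at the 3′ and 5′ ends of 4 transcripts were set beside this. The 3′ minus 5′ difference on array A was 1.373, 1.498, 1.681 and 1.745 for pyruvate carboxylase (Pcx) in replicates 1 to 4, 1.216, 1.042, 1.553 and 1.220 for Tfrc, and -0.073, -0.217, -0.005 and 0.027 for Gapdh. On array B it was 2.38, 2.24, 2.40 and 2.53 for Pcx, 1.44, 1.23, 1.51 and 1.86 for Tfrc, and -0.312, -0.262, -0.121 and -0.126 for Gapdh. For these 3 transcripts the 3′ minus 5′ difference was higher in the second run on both arrays without overlap. Replicates 1 and 4 of Tfrc on array A nearly met. The difference for Actb was 0.423, 0.365, 0.373 and 0.323 on array A and 0.504, 0.303, 0.347 and 0.363 on array B, and its runs overlapped on both. The part of RNA or labelling quality in the run difference was not tested.

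Counted by genes at their brightest probe set, 1159 of 7816 tested genes of array A, or 14.8%, were called, with 624 (7.98%) higher and 535 (6.84%) lower in the second run. The smooth muscle and pericyte list had 6 of 9 called, all 6 higher. Of these, Myh11 rose by 1.14 ± 0.15 (SE), Actg2 by 0.92 ± 0.09 and Cnn1, calponin, by 0.89 ± 0.08, and Acta1 of the skeletal muscle list rose by 1.33 ± 0.09. Matrix proteases and inhibitors had 11 of 23 called, all 11 higher, among them Mmp14 with 0.64 ± 0.09 and Serpinf1 with 0.64 ± 0.11. Of 36 matrix glycoproteins 12 were called, 11 of them higher, and of 20 collagen chains 8, of which 7 were higher.

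The actin and contractile list had 10 of 43 called and the collagen-making list 4 of 20, all of them higher. Of 22 fibroblast markers 8 were called, 6 of them higher: Fap, a surface protease of activated fibroblasts, by 1.14 ± 0.15, Thy1 by 0.61, Postn by 0.40, Pdgfrb by 0.37, Col1a2 by 0.34 and Fn1 by 0.33. The others, Lum and Pdgfra, were lower, at -1.42 ± 0.12 and -0.67 ± 0.10. Not every probe set separated the runs: another of Pdgfrb read 8.073, 8.388, 8.298 and 8.388, and the runs overlapped for Pdgfra on array B.

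Other lists had more calls in the lower direction or few calls. Over all tested genes 14.8% were called and 6.84% were called lower in the second run. Of 46 genes of proliferation 18 were called, 12 of them lower in the second run, and of 42 mesenchymal transcription factors 11, of which 8 were lower. Secreted factors held both directions, with 19 of 59 called, 9 higher and 10 lower. Among them Inhba rose by 0.85 ± 0.09 and Fgf7, a growth factor for epithelium, had -1.43 ± 0.10. Receptors had 16 of 49 called, 4 higher and 12 lower. Ribosomal proteins had 3 of 43 called and mitochondrial ribosomal proteins 3 of 74. Of 16 tested Hox genes 2 were called, both lower, one of them Hoxd13 at -1.04 ± 0.12. That share of 12.5% was near the share of all tested genes.

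**Figure D5:**
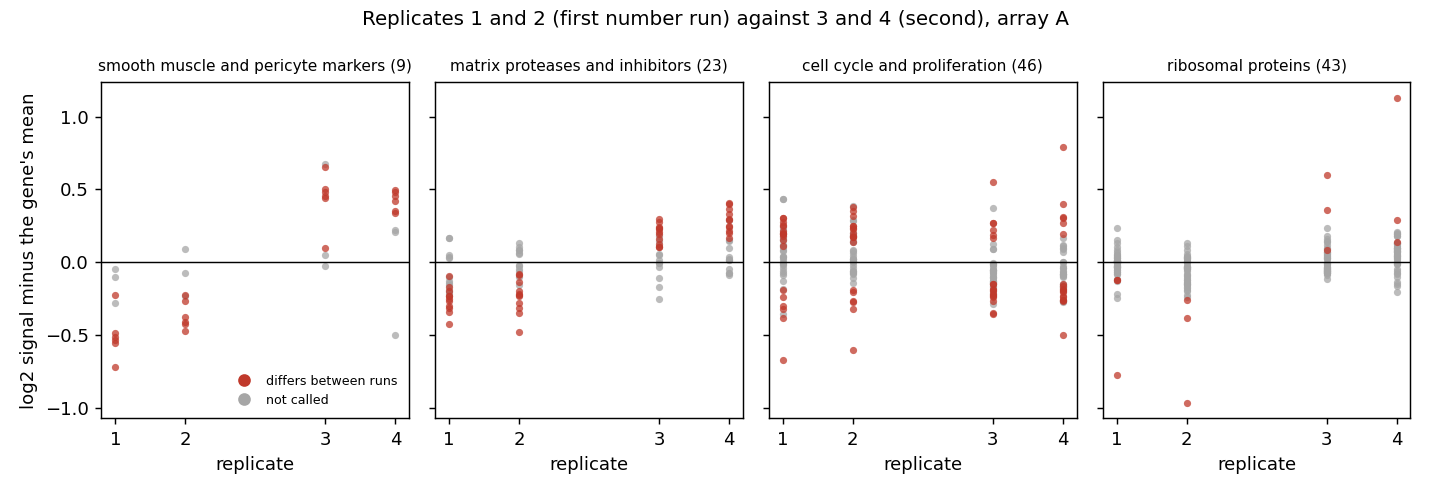
Log2 signal of each tested gene minus its own mean, for replicates 1 and 2 (first number run) and 3 and 4 (second), in 4 gene lists on array A (number tested in brackets). Red points are genes with an adjusted p under 0.05 (limma) between the runs. The called smooth muscle genes all lie above 0 in replicates 3 and 4, and most ribosomal protein genes stay near 0.

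The numbers of the other 3 groups form the same 2 runs. Of the 2639 probe sets of array A called in wild type cells, 95.5% differed in the same direction in unirradiated mutant cells, 94.1% in irradiated mutant cells and 96.3% in irradiated wild type cells. For all 13576 tested probe sets these shares were 74.3%, 73.6% and 75.9%. Penk, for example, had -1.54, -1.95 and -2.75 in those 3 groups.

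The 2 array types agreed in level where they share probe sets. Over 100 shared probe sets that are not controls, the means correlated with r = 0.985 across probe sets, the median difference of B minus A was 0.02, and 96 lay within 0.5. For 3713 genes read by other probe sets on the 2 types, r was 0.25. Of these, 1676 genes were over 4-fold brighter on array A and 378 on array B. A level on array B is therefore given for a gene only beside its array. Deviations of a replicate from the wild type mean agreed less between the array types. They correlated with r from 0.30 to 0.66 over the 100 shared probe sets. Over 1224 genes read by other probe sets, above every bacterial control on both types, r was 0.13 to 0.14. On array A 4956 genes had several probe sets, which differed by a median of 1.85 between the highest and the lowest, and 47.3% differed by more than 2. The type I collagen gene Col1a1 was itself an example, with a second probe set at 9.22, 8.81, 10.11 and 10.47.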

How the data were processed

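The deposited values are log2 signals of probe sets, summarised and scaled by the authors in a way the sources used here do not state, and their log base was read from their range (0.267 to 15.63 on array A in these samples). They were used without further scaling. Probe sets were named through the platform annotation, with symbols updated through RefSeq gene identifiers, and 20380 of array A and 14661 of array B had 1 gene, 691 and 245 had several and 1555 and 7605 had none. The 64 controls of each array were kept out of ranks and tests. Samples were grouped by genotype and treatment in their labels. No column of another series was present (0 columns).

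Levels are means over 4 replicates with SDs. Classes are the top and bottom 25% of probe sets. The comparison with the bacterial controls was added after the data were seen. The number run difference was fitted with limma 3.58.1 in R 4.3.3 (lmFit, then eBayes with an intensity trend) on the 4 wild type samples of each array, over probe sets at or above the 40th percentile of the wild type mean, with Benjamini-Hochberg adjustment over each array. The script was tested on simulated data. Tables were made with pandas 2.3.3 (Python 3.11.15, numpy 2.4.6) and drawn in matplotlib 3.10.9.

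The cells, the 43 gene lists and the 6 families taken by symbol were chosen with earlier results of these data known. Named genes are the 5 markers, the highest genes of each array, up to 4 highest and 4 lowest members of a list, for other cell types those in the top 25% and the first 3 listed, all Hox, cofactor and sex-linked genes, the largest run differences and the largest and smallest SDs. Genes outside this rule were chosen after their values were seen. Alternatives were no filter, a filter at the 60th percentile, quantile normalization, no trend, all 16 extracts, other class bounds, other probe set rules and each replicate left out.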

Additional observations from a re-analysis of the deposited data

Results flagged for a closer look

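Of 280 gene and array pairs named, 13 had 1 replicate whose gap to the nearest other replicate, divided by the range of all 4, passed Dixon's 95% critical value for 4 values, and chance alone flags about 1 in 20. Replicate 3 stood apart most often. It was lowest for Eef1a1 (14.73 against 14.92, ratio 0.951), Igf2 (11.86 against 12.21, ratio 0.922), Tfap2a (4.46 against 4.75, ratio 0.896) and Rai14 (ratio 0.856), and highest for Cdh2 (11.62 against 11.29, ratio 0.842) and Hoxc8 (9.66 against 9.63, ratio 0.858). Replicate 2 was lowest for Rplp0 (14.71 against 14.95, ratio 0.926), Acan (ratio 0.858) and, on array B, Hoxd3 (3.45 against 3.73, ratio 0.984). Replicate 1 was highest for Hoxd11 (3.08 against 2.35, ratio 0.88) and lowest for Rps6 (7.96 against 8.27, ratio 0.873) and Hoxb6 (6.60 against 7.02, ratio 0.831). Replicate 4 was lowest for Shmt2 (ratio 0.854). For Rai14, Acan, Shmt2 and Hoxc8 the whole range of the 4 replicates was under 0.1.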

How the results depend on the processing

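No paired analysis was possible because the report compares no groups: its contrast lies between the replicate numbers of wild type cells, also in the fit of all 16 extracts, so a block on those numbers would remove it. Called run differences on array A were 1042 to 2810 when 1 replicate was left out, against 2639, and on array B 0 to 709, against 54. In these fits the lone sample of a run is assumed to vary like the others. On array B the count was 242 with a filter at the 60th percentile, 181 without the intensity trend, 522 with all 16 extracts and 0 after quantile normalization, where 2070 probe sets still had an unadjusted p under 0.05. With the outer 40% as classes in place of 25%, 15 Hox genes and 318 markers of other cell types were in the low class and 30 of those markers in the high class, as wider classes hold more genes. With the median probe set of a gene 10 of those markers were in the high class, and so were 10 in place of 22 receptors and 11 in place of 21 Zfp genes. With the CpG bound at 0.4, 41.6% of windows of the bottom 25% passed. The other 105 counts, medians and shares recomputed for the main results stayed within 1.5 times their value. Of the levels of named genes, 110 of 1680 recomputed values moved by more than 1 SD, 109 of them when a gene was given by the median of its probe sets. Of 140 recomputed run differences of named probe sets, 16 lost their call and none changed direction. These probe sets were picked as the largest called differences in the same samples, so a change of direction was hardly possible.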

Other observations

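More families of the wild type cells were measured on array A. Of 18 tubulin and microtubule genes 12 were in the top 25%, led by Tuba1a at 14.15 ± 0.14 and Tubb5 at 13.40 ± 0.06, and Mapt, the tau protein of neurons, was the lowest at 3.94 ± 0.07. Of 36 chaperone genes 28 were in the top 25%, led by Hspa5 of the endoplasmic reticulum at 14.33 ± 0.09 and the chaperonin subunit Cct2 at 14.08 ± 0.14. The small heat shock gene Hspb3 at 2.50 ± 0.04 was the lowest, and Cct6b, a testis form, read 3.81 beside 13.45 for Cct6a. Of 45 genes of iron, redox and secretion 35 were in the top 25%, and the annexin Anxa1 read 14.20 ± 0.08, whereas the neutrophil genes S100a8 and S100a9 read 2.69 and 3.13. Kidney, eye and pituitary lists had 0, 1 and 0 genes in the top 25% of 18, 24 and 17 measured, and the 1 was Cryab, a lens and stress protein, at 9.06 ± 0.38. Of 29 translation factors 28 were in the top 25%. Of 16 erythroid and platelet genes and 28 epithelial and keratinocyte genes none was, with 7 and 14 in the bottom 25%, and of 27 glial and neural crest genes 4 were in the top 25% and 10 in the bottom 25%. The large families were spread over all classes, with 36 of 262 solute carriers and 21 of 173 Zfp zinc finger genes in the top 25%, and 82 and 30 in the bottom 25%.

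Xist and the Y-linked Eif2s3y did not overlap between the 2 genotypes of the series. Xist lay between 8.19 and 9.55 in irradiated wild type cells, as it was high in the unirradiated ones, and between 3.16 and 3.29 in all mutant samples of array A. Eif2s3y lay between 3.25 and 4.02 in irradiated wild type cells, between 8.63 and 9.11 in unirradiated mutant cells and between 8.46 and 9.32 in irradiated mutant cells. Uty lay between 3.57 and 4.29 in irradiated wild type cells and between 4.28 and 5.91 in irradiated mutant cells, where the groups met. In unirradiated cells Uty lay between 3.44 and 4.32 in wild type and between 5.02 and 5.47 in mutant samples, which did not meet. Kdm5d lay between 2.73 and 3.27 in all wild type samples and between 2.85 and 3.06 in all mutant samples, so its probe set gave no such difference. No test was made of these values, which were noticed in the data, and the part of sex in any difference between the genotypes was not tested.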
